A study of Mus musculus with 12 samples.

Results

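The genes described here encode the machinery of fast inhibitory signalling: the enzymes that make GABA, the transporters that load, recapture or clear GABA and glycine, and subunits of the glycine receptor. They were chosen by name as Gad1, Gad2, Slc32a1, Slc6a5, Slc6a9, Slc6a11, Glra1, Glra3 and Glrb, and every protein-coding transcript listed under these symbols was taken. No enzyme of glycine synthesis is among them. All 9 were found, with 26 of the 57109 protein-coding transcripts and 9 of the 21981 genes in the deposited table. RNA came from 2 sites. The trigeminal ganglia (TG) contain the sensory neurons that serve the face and jaw, and pain and temperature fibres of those neurons end in the spinal trigeminal nucleus caudalis (Sp5C), which lies in the medulla. The series concerns lasting inflammatory pain of the jaw joint in mice. There were 12 libraries in 4 groups of 3, named STG and CTG (ganglia) and SSp5C and CSp5C (nucleus). Every group is of wild-type C57BL/6 mice aged 8 weeks, and the labels name no agent, dose, time or sex. The letters S and C are not explained there. Contrasts between the letters are therefore given as C minus S. Nothing in the labels says that replicates came from separate animals, so every p-value is set against a spread between libraries that could be purely technical.

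An inhibitory nerve ending makes GABA from glutamate with the glutamate decarboxylases, Gad1 and Gad2, and fills its vesicles through the transporter encoded by Slc32a1, which carries both GABA and glycine. Glycinergic neurons take glycine back up with the product of Slc6a5, while the products of Slc6a9 and Slc6a11 clear glycine and GABA mainly into astrocytes. Glycine receptors are chloride channels built of alpha subunits, here Glra1 and Glra3, and the beta subunit Glrb, which ties them to the scaffold protein gephyrin. In the dorsal horn and its counterpart in the medulla, such neurons restrain the passage of touch and pain signals.

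Values are FPKM, fragments scaled to transcript length and library size, so levels of different genes can be set beside each other. A gene's level is the sum over its transcripts. Differences are on the log2(FPKM + 1) scale, which understates the change of genes near 0, and were tested with limma over all genes with a mean of at least 1 FPKM, with Benjamini-Hochberg adjustment and a threshold of 0.05. Between the tissues that mean is taken over all 12 libraries. A gene below 1 FPKM in TG can thus pass the filter only if its mean is higher in Sp5C, and the reverse. The deposited values carry no counts. From the smallest step between low values, 1 fragment was estimated at 0.0315 to 0.0442 FPKM for a transcript of 1 kb, which corresponds to about 22.6 to 31.8 M fragments per library. The labelled tissues differed in markers of neurons, as 10 sensory neuron genes summed to 1235 to 1450 FPKM in TG and 45.0 to 81.4 in Sp5C, and 13 genes of inhibitory dorsal horn neurons to 40.5 to 52.9 in TG and 161 to 183 in Sp5C. Most of the latter sum came from 1 gene, Pvalb, which averaged 34.8 FPKM in TG and 107 in Sp5C. Schwann cell genes summed to 4479 to 5830 FPKM in TG and 205 to 314 in Sp5C. A list of 6 genes of satellite glia, a cell type of ganglia, ran the other way, at 1312 to 1751 in TG and 2096 to 3026 in Sp5C. The 5 choroid plexus genes summed to 23.8 to 33.0 in TG and, over a wider range, to 3.56 to 56.9 in Sp5C (median 13.0). Single genes of this list went opposite ways. Aqp1 averaged 27.4 FPKM in TG and 0.209 in Sp5C, whereas Ttr averaged 0.167 in TG and 14.9 in Sp5C. Some libraries stood apart in markers of nearby tissue. STG 1 (STG replicate 1) had the highest pituitary sum, at 2858 FPKM against 2.57 to 51.6 in the other TG libraries. CTG 1 had the highest neutrophil and bone marrow sum, at 816 against 3.38 to 281. CSp5C 3 had the highest sums of motor and cholinergic, choroid plexus and cerebellar genes in Sp5C and the lowest of oligodendrocytes and astrocytes.

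Both GABA-synthesising enzymes were abundant in the nucleus and close to absent from the ganglion. In Sp5C, Gad1 stood at 69.8, 72.0 and 73.1 FPKM in the SSp5C libraries and at 64.9, 76.1 and 65.8 in CSp5C. In TG it stood at 0.430, 0.276 and 0.182 in STG and at 0.170, 0.211 and 0.219 in CTG. No library of one tissue reached the range of the other. The lowest Sp5C value was 151 times the highest TG value, and limma gave a log2 difference of −5.84 ± 0.06 (SE, adjusted p = 3.17e-14). Gad2 lay lower than Gad1 in every Sp5C library, at 31.4, 42.6 and 38.8 FPKM in SSp5C and 37.2, 38.5 and 40.5 in CSp5C. Its TG values ran from 0.0130 to 0.0775, which corresponds to about 2.0 to 11.9 fragments per library (log2 difference −5.23, adjusted p = 2.74e-13). Because bulk tissue was measured, fewer cells of a type and less RNA per cell cannot be told apart here or below.

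The vesicular transporter followed the enzymes. Slc32a1 stood at 59.4, 55.0 and 56.0 FPKM in SSp5C and at 47.8, 54.7 and 58.1 in CSp5C. In TG it was listed at 0 in STG 2 and reached at most 0.114, in STG 1, or about 8.5 fragments. The tissues did not overlap, and the log2 difference was −5.74 (adjusted p = 3.17e-14). The lowest Sp5C library was 419 times the highest TG library.

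Among the glycine and GABA transporters of the plasma membrane, the neuronal one had the highest ratio between the tissues. Slc6a5 stood at 64.1, 64.4 and 71.8 FPKM in SSp5C and at 63.2, 66.1 and 73.1 in CSp5C, against 0.0451 to 0.119 in TG (log2 difference −5.97, adjusted p = 3.14e-14). By ratio of means the nucleus held 810 times the ganglion's level. The glial transporters were lower in TG as well, but above the filter of 1 FPKM. Slc6a9 stood at 55.0, 55.9 and 61.1 FPKM in SSp5C and at 55.6, 55.0 and 49.7 in CSp5C. Its TG libraries held 3.02, 2.99 and 3.05 in STG and 4.99, 2.04 and 2.05 in CTG, or about 208 to 468 fragments each. The STG libraries lay close together, whereas CTG 1 lay above and CTG 2 and 3 below all of them. The log2 difference between tissues was −3.84 ± 0.15 (SE, adjusted p = 1.2e-09), with the lowest Sp5C library 9.95 times the highest TG library.

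Slc6a11, a GABA transporter of astrocytes, had the highest mean of the 9 genes in Sp5C. Its levels were 108, 125 and 129 FPKM in SSp5C and 114, 115 and 107 in CSp5C. In TG they were 2.28, 1.51 and 1.09 in STG and 1.68, 0.998 and 1.40 in CTG (log2 difference −5.57, adjusted p = 5.13e-12). Astrocyte markers moved with both glial transporters, as 8 of 8 astrocyte genes were lower in TG, where 35% of all genes tested were lower. Their sums were 56.5 to 117 FPKM in TG against 664 to 926 in Sp5C. The part of these markers in the transporter result was not tested.

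The glycine receptor genes spanned a wide range. Glra1 stood at 85.9, 88.2 and 92.03 FPKM in SSp5C and at 84.6, 88.9 and 105 in CSp5C. In TG it lay between 0.0240 and 0.147, or about 1.5 to 10.8 fragments per library. It had the lowest log2 difference of the 9 genes, −6.42 (adjusted p = 3.17e-14), and a lowest Sp5C library 574 times the highest TG library. Glra3 was the scarcest of the 9 in Sp5C, at 5.18, 7.32 and 6.95 FPKM in SSp5C and 4.86, 6.996 and 5.77 in CSp5C. Its TG values of 0.0171 to 0.0432 rest on about 3.0 to 7.0 fragments each, and its log2 difference of −2.79 (adjusted p = 2.19e-10) was −5.57 with a pseudocount of 0.1 FPKM.

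The beta subunit broke the pattern. Glrb was well above 0 in the ganglion, at 37.8, 48.6 and 47.3 FPKM in STG and 40.9, 52.1 and 41.3 in CTG, while neither alpha subunit exceeded 0.147 there. In Sp5C it stood at 110, 106 and 113 in SSp5C and at 111, 109 and 87.7 in CSp5C. All 6 Sp5C libraries still lay above all 6 TG libraries, and the log2 difference was −1.23 ± 0.09 (SE, adjusted p = 1.41e-07). The ratio of means was 2.38, against 18.3 to 1288 for the other 8 genes.

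**Figure D1:**
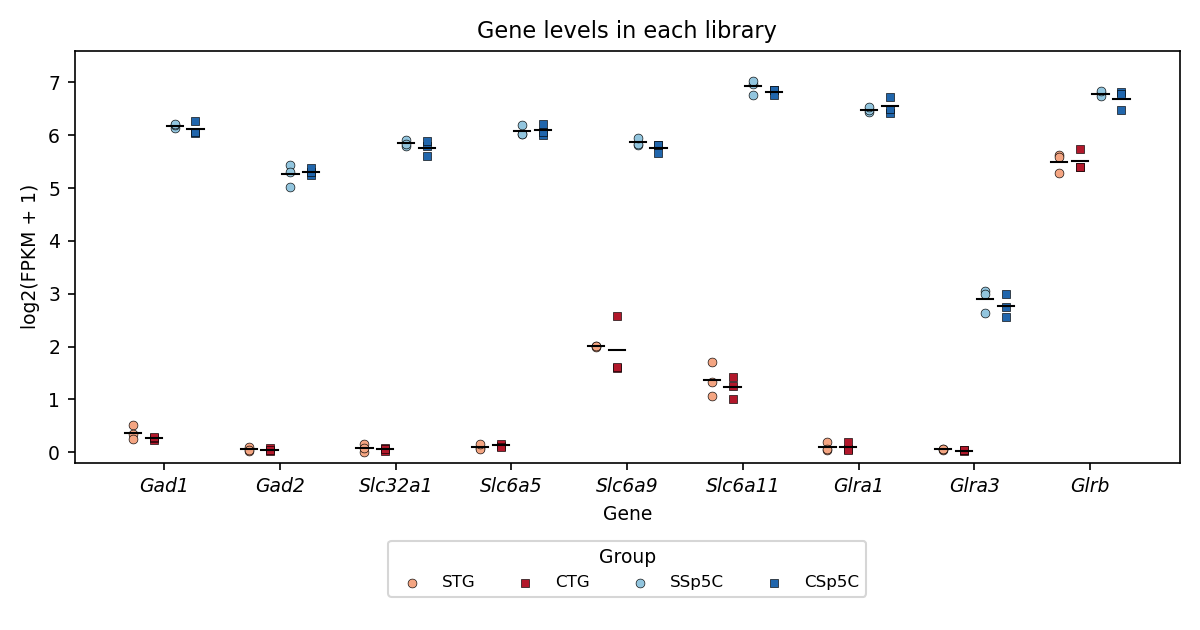
Levels of the 9 genes in each library on the log2(FPKM + 1) scale, with circles for S and squares for C groups, orange and red for TG and light and dark blue for Sp5C; short lines are group means of 3 libraries. For each gene all 6 Sp5C libraries lie above all 6 TG libraries, and in TG Glrb lies between 37.8 and 52.1 FPKM while no other gene exceeds 4.99.

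All 9 genes were thus lower in TG by limma's test, where 35% of the 13081 genes tested were lower in TG and 26.1% had all TG libraries below all Sp5C libraries. Only Slc6a9, Slc6a11 and Glrb had a TG mean of at least 1 FPKM. The others passed the filter through Sp5C alone, which fixed their direction in advance. The median log2 difference of all 9 genes was −5.57, beside 0.01 over all genes tested. In Sp5C the order of mean levels ran from Slc6a11 (116 FPKM) through Glrb (106), Glra1 (90.8), Gad1 (70.3), Slc6a5 (67.1), Slc6a9 (55.4), Slc32a1 (55.2) and Gad2 (38.2) to Glra3 (6.18). Neighbours in this order had overlapping ranges, except at the steps from Glra1 to Gad1, from Slc6a5 to Slc6a9, from Slc32a1 to Gad2 and from Gad2 to Glra3. In TG the order was Glrb (44.7 FPKM), Slc6a9 (3.02), Slc6a11 (1.49), Gad1 (0.248), Slc6a5 (0.0828), Glra1 (0.0705), Slc32a1 (0.0483), Gad2 (0.0372) and Glra3 (0.0308). From Slc6a5 downwards neighbouring ranges overlapped in TG, as did those of Slc6a9 and Slc6a11. Across the 6 Sp5C libraries the coefficient of variation was 6.14% for Gad1 to 9.96% for Gad2, and 16.9% for the scarce Glra3. The median over the 1676 genes with a mean of 30 to 130 FPKM in Sp5C was 5.88%.

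The genes lie on 7 autosomes in GRCm38, with positions here from GENCODE M21, an annotation that holds 99.84% of the table's transcript identifiers. Gad2 (2:22622205-22693874), Gad1 (2:70553072-70602014) and Slc32a1 (2:158610767-158615748) are on the plus strand of chromosome 2. Slc6a9 is at 4:117834506-117875198 (plus), Slc6a11 at 6:114131241-114249952 (plus), Slc6a5 at 7:49910146-49963856 (plus) and Glra3 at 8:55940460-56130070 (plus). Glrb is at 3:80843599-80913660 and Glra1 at 11:55514238-55608198, both on the minus strand. Genes on the opposite strand overlap several of them, such as Ccdc24 and B4galt2 at the end of Slc6a9, Gm17114 along most of it, Gad1os at the start of Gad1 and Gm12236 over the last exons of Glra1. The library kit keeps strand, but whether strand was used for quantification is not given in the sources used here, so reads of such pairs may not have been told apart. The mean of B4galt2 was 5.38 ± 0.46 FPKM (TG) and 8.56 ± 1.14 (Sp5C; SD, n = 6 each) and Ccdc24 at 0.143 ± 0.083 and 0.134 ± 0.038.

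At the level of transcripts, 14 of the 26 had a mean of at least 1 FPKM in a tissue, and 5 were listed at 0 in every library. Gad2, Slc32a1, Slc6a11 and Glra3 have a single transcript in the table. Of 15 transcripts that passed the filter of 0.5 FPKM, 14 were lower in TG by limma on log2(FPKM + 0.5) where 24.4% of 24797 transcripts were lower. The exception was the short Glrb transcript ENSMUST00000107743, with means of 0.526 ± 0.076 FPKM (TG) and 0.840 ± 0.299 (Sp5C) (SD, n = 6 each, adjusted p = 0.0602). Among the 15, all but those of Glrb, Slc6a9 and Slc6a11 had a TG mean under 0.5 FPKM. These passed the filter, a mean over both tissues, through Sp5C alone, so their direction was fixed in advance. In Sp5C most of each gene's signal fell on 1 transcript. The main transcript took 80.2% ± 3.0 of Gad1 (ENSMUST00000094934), 95.7% ± 0.8 of Slc6a5 (ENSMUST00000056442), 99.2% ± 0.3 of Glrb (ENSMUST00000029654), 93.9% ± 1.0 of Slc6a9 (ENSMUST00000030269) and 80.7% ± 9.0 of Glra1 (ENSMUST00000102716), as SD over 6 libraries. Such shares are estimates, because transcripts of a gene share most of their exons.

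For Slc6a9 the mix of transcripts differed between the tissues. ENSMUST00000030269 starts at base 117835051 of chromosome 4, and ENSMUST00000132043 starts downstream, at base 117849193. They open with different coding bases before they join, so the sequences below, from GENCODE M21 (GRCm38), show where the encoded proteins part. Capitals mark the bases particular to each start, and lower case the bases that both share.
Slc6a9 ENSMUST00000030269: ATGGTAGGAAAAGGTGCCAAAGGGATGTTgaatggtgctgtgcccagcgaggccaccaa
Slc6a9 ENSMUST00000132043: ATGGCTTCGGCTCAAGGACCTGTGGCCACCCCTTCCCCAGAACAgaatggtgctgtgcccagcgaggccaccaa
The particular stretch is 29 bases in the upstream form and 44 in the downstream form. ENSMUST00000132043 is annotated without its coding end and with 7 exons, against 14 in ENSMUST00000030269, so it stands here for the downstream start and not for a whole transcript.

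The downstream form took 23.0%, 28.6% and 20.0% of Slc6a9 FPKM in STG and 26.0%, 16.2% and 20.97% in CTG. In Sp5C it took 6.35%, 4.81% and 7.45% in SSp5C and 4.95%, 5.11% and 4.88% in CSp5C. Each TG library thus lay above each Sp5C library. The means were 22.5% ± 4.4 in TG and 5.59% ± 1.08 in Sp5C (SD, n = 6 each, exact permutation test, two-sided, p = 0.00216, the smallest that 6 against 6 allows, adjusted p = 0.00325 over 3 shares). The share of ENSMUST00000030269 moved the other way, from 93.9% ± 1.0 in Sp5C to 76.9% ± 4.6 in TG (same p). In absolute terms both forms were lower in TG. ENSMUST00000132043 averaged 0.703 ± 0.346 FPKM (TG) and 3.12 ± 0.79 (Sp5C; limma log2 difference −1.61 ± 0.20, SE, adjusted p = 6.72e-05), and ENSMUST00000030269 at 2.30 ± 0.74 and 52.0 ± 3.0 (−4.26 ± 0.15, adjusted p = 7.21e-09). Without any 1 library the difference in share stayed between 15.7 and 18.1 percentage points. The share of the main Glrb transcript differed by only 0.400 points, at 98.8% in TG and 99.2% in Sp5C (exact permutation p = 0.0216, adjusted p = 0.0216).

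Glra1 also had a pair of expressed transcripts, and these varied among Sp5C libraries. ENSMUST00000075603 carries 24 more coding bases than ENSMUST00000102716, at the start of the last exon (chr11:55515104-55515127, minus strand, GRCm38). They lie in the part of the gene that encodes the intracellular loop of the receptor subunit. Capitals mark the 24 added bases, which leave the reading frame unchanged, with 30 shared coding bases on each side in lower case.
Glra1 ENSMUST00000075603: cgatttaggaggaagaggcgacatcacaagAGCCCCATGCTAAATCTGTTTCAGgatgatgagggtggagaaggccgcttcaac
Glra1 ENSMUST00000102716: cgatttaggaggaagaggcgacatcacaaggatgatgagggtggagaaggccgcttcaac
The transcripts also differ at their annotated 5′ ends, so a share does not rest on this segment alone.

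The longer form took 23.0%, 21.8% and 25.6% of Glra1 FPKM in SSp5C. In CSp5C it took 7.53%, 29.0% and 8.61%, so that CSp5C 1 and 3 lay below and CSp5C 2 above the SSp5C range. Its levels were 19.8, 19.3 and 23.6 FPKM in SSp5C and 6.37, 25.8 and 9.06 in CSp5C. The shorter form stood at 66.2, 68.9 and 68.4 in SSp5C and at 78.3, 63.2 and 96.2 in CSp5C. The group means of the share, 15.0% ± 12.1 in CSp5C and 23.5% ± 2.0 in SSp5C (SD, n = 3 each), did not differ beyond this spread (exact permutation p = 0.4, adjusted p = 0.6 over 3 shares, where 3 against 3 cannot go below 0.1). In limma's fit of transcripts the longer form had a log2 difference of −0.83 ± 0.50 (SE, adjusted p = 0.941). Markers of motor and cholinergic neurons, which neighbouring parts of the medulla hold, varied over the same libraries. Their sums were 36.8, 11.6 and 62.5 FPKM in CSp5C 1, 2 and 3 and 23.6 to 26.7 in SSp5C. Chat, the enzyme of acetylcholine synthesis, stood at 4.85, 1.71 and 9.23 FPKM in CSp5C and 3.64 to 3.97 in SSp5C. Of the 5 markers on that list, 3 had a mean of at least 1 FPKM in Sp5C, each with a higher mean in CSp5C and 0 past the threshold, and Mnx1 was listed at 0 in all libraries but SSp5C 2. Choroid plexus sums ran in the same order, at 22.1, 4.70 and 56.9 FPKM in CSp5C 1, 2 and 3. In SSp5C they were 3.56 to 13.7. The part of either list in the Glra1 mix was not tested.

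**Figure D2:**
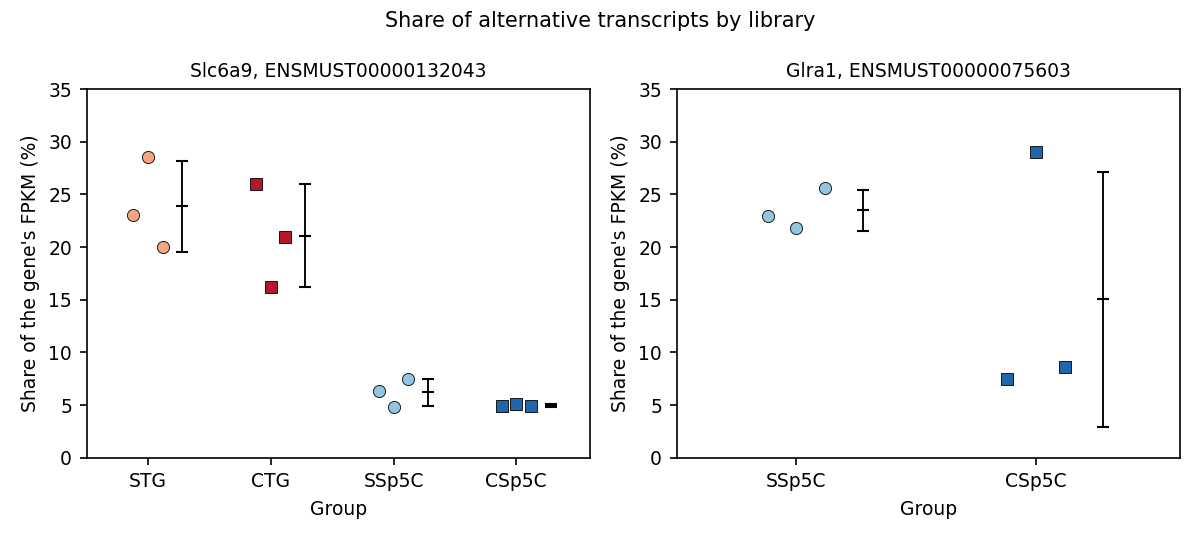
Share of each gene's FPKM taken by ENSMUST00000132043 of Slc6a9 (left, 12 libraries) and ENSMUST00000075603 of Glra1 (right, 6 Sp5C libraries), in percent; points are libraries, in the order of replicate number, and bars the mean ± SD of 3. The Slc6a9 share is 16.2% to 28.6% in TG and 4.81% to 7.45% in Sp5C, and CSp5C 1 and 3 are the lowest for Glra1.

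Gad1 likewise had a shorter second form, ENSMUST00000123330, of 6 exons and annotated without its coding end. It took 20.0% to 20.6% of Gad1 FPKM in 5 of the 6 Sp5C libraries and 11.6% in CSp5C 3. Its level there was 7.63 FPKM, against 13.1 to 15.7 in the others. The difference in share between CSp5C and SSp5C was −2.86 points (exact permutation p = 0.7, adjusted p = 0.7).

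The upstream region of Slc32a1 is shared with a long non-coding RNA on the opposite strand, Gm14204 (ENSMUSG00000086496), which was looked up after its values were seen. There are 43 bases between the annotated starts of the pair. The 250 bases before the RefSeq start of Slc32a1 (chr2:158610508-158610757, plus strand, GRCm38.p6) are shown because both RNAs begin at their right end. Capitals mark the last 34, which lie between the start of Gm14204 and that of Slc32a1.
Slc32a1 upstream: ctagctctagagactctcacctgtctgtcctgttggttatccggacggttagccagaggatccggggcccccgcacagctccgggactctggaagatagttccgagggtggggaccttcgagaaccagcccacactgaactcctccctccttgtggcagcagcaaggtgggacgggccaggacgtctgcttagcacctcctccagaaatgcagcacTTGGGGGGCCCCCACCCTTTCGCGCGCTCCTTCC
Gm14204 stood at 5.13, 5.59 and 4.68 FPKM in SSp5C and at 4.47, 6.19 and 6.33 in CSp5C. In TG it was listed at 0 in 5 libraries and at 0.0139 in STG 1. The tissues did not overlap, which is given with no test since it led to the choice, and CSp5C and SSp5C differed by less than their spread (exact permutation p = 0.5).

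RefSeq's table held promoter windows for 8 of the 9 genes, 11 windows of 300 bases in all. Their median GC content was 60.3%, beside 52.7% over all 32851 windows, and their median ratio of observed to expected CpG was 0.543 beside 0.384. On either strand, GGGCGG was found in 5 of the 11 windows (35.7% of all windows hold it). TATAAA was found in 1, that of Gad1 (13.6% of all), and CAGCTG in 1, that of Glra3 (16.3% of all).

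Genes around these 9 in the same pathways were less uniform. Of 11 genes for GABA uptake and breakdown and the glutamine supply, 8 were lower and 1 higher in TG, where 35% of all genes were lower and 36.2% higher, with a median log2 difference of −1.70. Abat, the transaminase that breaks down GABA, averaged 14.1 ± 0.5 FPKM (TG) and 114 ± 7 (Sp5C; SD, n = 6 each, log2 difference −2.92, adjusted p = 1.5e-12). Aldh5a1, which acts after Abat, differed by −2.35, Slc1a1, a neuronal glutamate transporter, by −2.91 and Slc38a1, a glutamine transporter, by −1.70. Slc38a2, an amino acid transporter, was the gene that was higher in TG (0.61, adjusted p = 4.72e-05), named for its direction.

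Of 12 genes for the synthesis of glycine and serine and the cleavage of glycine, 10 were tested. Of these, 6 were lower and 1 higher in TG (median −0.20), where 35% of all genes were lower and 36.2% higher. Slc7a10, a transporter of glycine and serine, averaged 0.195 ± 0.160 FPKM (TG) and 29.1 ± 2.6 (Sp5C; log2 difference −4.66). Amt, of the glycine cleavage system, differed by −1.62, Slc38a5, an amino acid transporter, by −1.44 and Psat1, of serine synthesis, by −1.27. Slc7a10 and Slc38a5 averaged under 1 FPKM in TG and passed the filter through Sp5C alone, which fixed their direction in advance. Phgdh, the enzyme at the head of serine synthesis, differed by 0.04 (adjusted p = 0.695).

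Of 14 further glycine receptor and inhibitory scaffold genes, 13 were tested, of which 6 were lower and 4 higher in TG (median −0.06). The shares over all genes were 35% lower and 36.2% higher. Glra2, a further alpha subunit, averaged 0.131 ± 0.087 FPKM (TG) and 4.32 ± 0.44 (Sp5C; log2 difference −2.23, adjusted p = 2.02e-10). Glra2 passed the filter through Sp5C alone, which fixed its direction in advance. Gephyrin itself, Gphn, was closer between the tissues, at 14.0 ± 0.6 and 21.5 ± 1.0 (−0.59, adjusted p = 8.27e-08), as was Nlgn2, an adhesion protein of inhibitory synapses, at 29.3 ± 0.6 and 45.4 ± 2.0 (−0.62). Iqsec3, a scaffold-associated exchange factor, differed by −2.67. Lhfpl4, which clusters GABA receptors, was higher in TG, at 83.9 ± 6.4 against 21.7 ± 0.7 (1.90, adjusted p = 3.99e-11).

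The vesicular glutamate transporters, which load the excitatory transmitter, did not share the pattern. Slc17a6 averaged 55.9 ± 2.7 FPKM (TG) and 55.6 ± 3.6 (Sp5C; log2 difference 0.01, adjusted p = 0.872), and Slc17a7 at 51.6 ± 8.9 and 36.9 ± 5.2 (0.47, adjusted p = 0.00467). Slc17a8 was under the filter in this contrast, at 1.19 ± 0.31 and 0.529 ± 0.098. Markers of inhibitory dorsal horn neurons were lower in TG for 11 of 12 tested genes of 13, and higher for 1 (median −1.94). Over all genes tested, 35% were lower and 36.2% higher. The transcription factors Pax2 (−2.94), Pax8 (−2.43) and Lhx5 (−1.80) and the neuropeptide Npy (−3.91) had the smallest p. Each of these, like most genes tested in this list, had a TG mean under 1 FPKM. Such genes passed the filter through Sp5C alone, which fixed their direction in advance. Gal, a neuropeptide that sensory neurons also make, was the gene higher in TG (1.02).

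**Figure D3:**
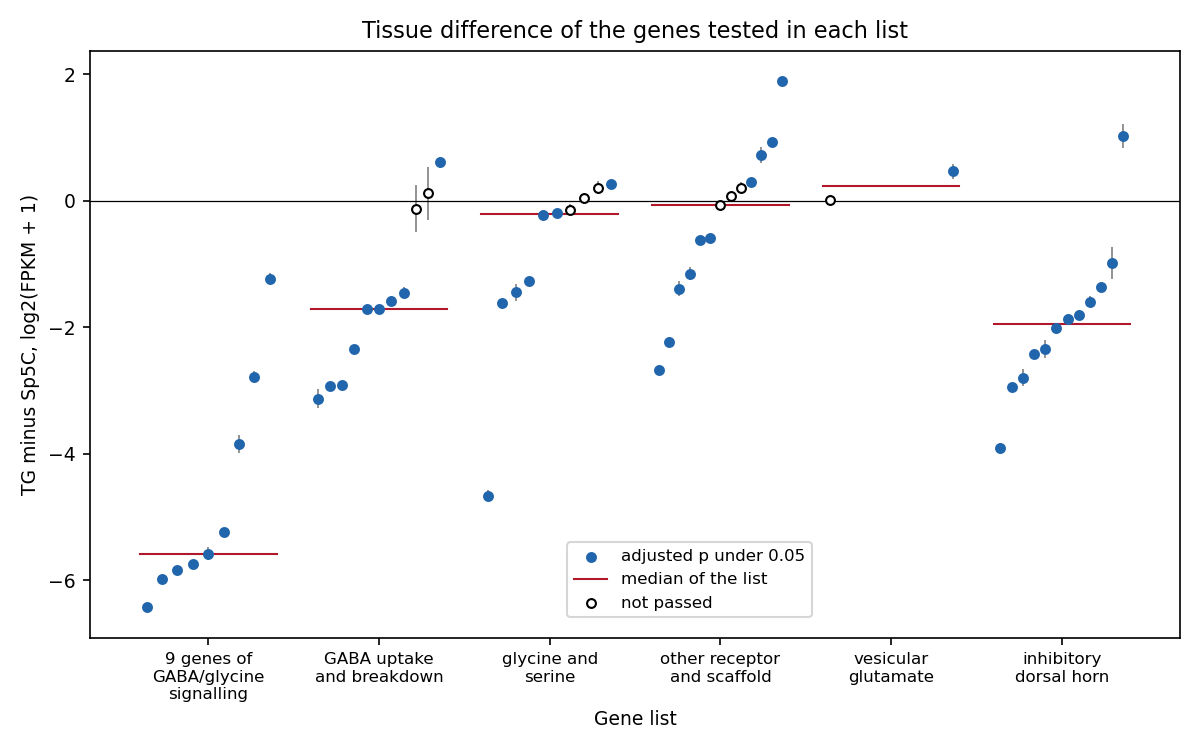
TG minus Sp5C on the log2(FPKM + 1) scale for each gene tested in 6 lists, with SE as grey bars, filled points for adjusted p under 0.05 (limma) and a red line at each list's median. The 9 genes at the left have a median of −5.57, and the median of the vesicular glutamate transporters lies above 0.

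The genes whose values were most alike were sought by Pearson correlation of log2(FPKM + 1) with the mean of the 9. Over all 12 libraries these were Htr2c, Fut9, Sv2a, Lamp5 and Grin2a (r = 0.9996 to 0.9993). This likeness describes the tissue difference, and 20.3% of 13072 genes had an r over 0.9. Over the 6 Sp5C libraries alone they were Rnf11, Trib2, Fbxl2, Dph6 and Phkg1 (r = 0.993 to 0.982), of which Trib2, Fbxl2 and Dph6 had higher means in TG. Over these 6 libraries, 0.938% of 12681 genes had an r over 0.9. The libraries share depth and scaling, so these correlations are given as a description.

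The comparison of the letters asks whether these genes differ between the C and S groups within a tissue. In Sp5C, 0 of the 9 genes passed limma's test, where 0.0315% of 12690 genes passed (either direction), and 0 had an unadjusted p under 0.05, against 5.02% of all genes. CSp5C and SSp5C overlapped for each of the 9, whereas the groups of 10.9% of all genes did not. Log2 differences ran from −0.12 for Glra3 to 0.06 for Glra1, with a median of −0.09 beside 0.00 over all genes, and 6 of the 9 means were lower in CSp5C. The 95% intervals of limma were turned into percent of FPKM at the mean of the S group. For Gad1 the interval reached from −14.7% to 8.01%, for Slc32a1 from −17.8% to 7.37%, and for Slc6a9 from −16.8% to 4.199%. It reached from −10.8% to 14.4% for Slc6a5, −18.1% to 5.62% for Slc6a11, −13.7% to 24.7% for Gad2, −9.56% to 20.3% for Glra1, −20.5% to 8.86% for Glrb and −33.1% to 21.2% for Glra3. Oligodendrocyte markers moved with the letter, at 522 to 678 FPKM in CSp5C and 713 to 729 in SSp5C as a sum of 6 genes. Of these, 6 of 6 had a lower mean in CSp5C, 4 had an unadjusted p under 0.05 and 0 passed. Their part in the lower means was not tested.

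CSp5C 3 set the direction of several values. It had the highest Glra1 level of the 6 libraries and the lowest Glrb level. Without it, the log2 difference of Glra1 was −0.03 instead of 0.06, that of Glrb 0.01 instead of −0.10 and that of Slc6a5 −0.04 instead of 0.01, and none passed.

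In TG only Slc6a9, Slc6a11 and Glrb reached a mean of 1 FPKM, and 0 of 3 passed, where 0.00775% of 12906 genes passed and 4.7% had an unadjusted p under 0.05. Their log2 differences were −0.08, −0.14 and 0.01 (adjusted p = 0.988, 0.966 and 0.996). Each interval was wider than that of the same gene in the nucleus, from −51.7% to 63.0% of FPKM for Slc6a9, −56.3% to 42.0% for Slc6a11 and −19.5% to 25.3% for Glrb. Without CTG 1 the log2 difference of Slc6a9 was −0.40 (adjusted p = 0.466). The other 6 genes were too scarce for a comparison, at about 0 to 38.5 fragments per library. With no filter none of them passed, and the smallest unadjusted p was 0.00761, for Glra3, whose CTG libraries (0.0171, 0.0261 and 0.0239 FPKM) lay below all STG libraries (0.0345, 0.0400 and 0.0432) at values of a few fragments. Of the 12906 genes above the filter, 6.32% had all CTG libraries below all STG libraries.

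The difference of the letter's effect between the tissues was tested directly over all 12 libraries for the 3 genes measurable in both tissues (Slc6a9, Slc6a11 and Glrb), and 0 of 3 passed. The other 6 genes were tested as well, and 0 of all 9 passed. Near 0 in TG, their part from that tissue rests on at most 38.5 estimated fragments per library, so their test says little about a difference between tissues. Of all 13081 genes, 0 passed limma's test (percent called 0) and 5.41% had an unadjusted p under 0.05. Among transcripts of these genes, 0 of 15 passed for C against S in Sp5C (0.00835% of 23943 transcripts) and 0 of 5 in TG (0.0703% of 24187), and 0 of the same 5 for the difference of effects (0.0242%). In the pathway lists and that of inhibitory dorsal horn neurons, 0 genes passed in either tissue. In Sp5C the gene with the smallest unadjusted p of each of these lists, apart from the vesicular transporters, was Phgdh (log2 difference −0.31, adjusted p = 0.904 by limma), Gbx2 (0.18), Gabarapl2 (−0.07) and Gls2 (0.06). In TG these were Igsf9b, an adhesion protein of inhibitory synapses (−0.28, adjusted p = 0.96 by limma), Amt (−0.34, adjusted p = 0.96), Gal (0.28) and Slc38a3, a glutamine transporter (−0.22). Second in its list by p, and named after its values were seen, Mdga1, which binds neuroligins, stood at 3.34 to 6.45 FPKM in CTG and 7.67 to 10.2 in STG, with no overlap (−0.65, adjusted p = 0.96 by limma). The vesicular glutamate transporters differed by −0.06 (Slc17a6) and 0.19 (Slc17a7) in Sp5C and by 0.08 (Slc17a6), 0.04 (Slc17a7) and 0.07 (Slc17a8) in TG, with adjusted p of 0.931 to 0.988.

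**Figure D4:**
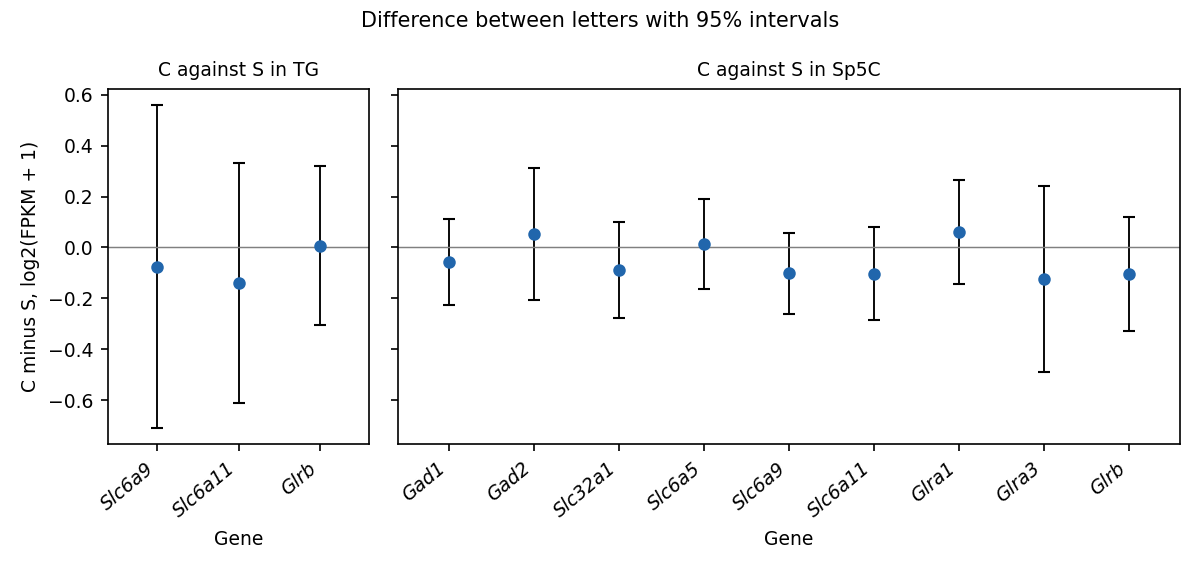
C minus S on the log2(FPKM + 1) scale with limma's 95% intervals, for the 3 genes that passed the filter in TG (left) and the 9 in Sp5C (right), 3 libraries per group. Every interval includes 0, and that of Slc6a9 in TG is the widest.

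Ratios between genes within a library do not depend on its scaling. In Sp5C, Gad1 stood at 1.86 ± 0.22 times Gad2 (SD, n = 6 libraries, range 1.62 to 2.22). The neuronal glycine transporter Slc6a5 stood at 0.620 ± 0.046 of the sum of Gad1 and Gad2 (0.562 to 0.687) and at 1.22 ± 0.09 times Slc32a1 (1.08 to 1.32). Glra1 stood at 0.868 ± 0.165 of Glrb, between 0.761 and 0.830 in 5 libraries and at 1.20 in CSp5C 3. None of the 4 ratios differed between CSp5C and SSp5C beyond the spread (exact permutation test, two-sided, p = 0.3 to 0.8, adjusted p = 0.8 each, smallest possible 0.1). The log2 difference of Glra1 to Glrb was 0.17 with all libraries and −0.04 without CSp5C 3.

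**Figure D5:**
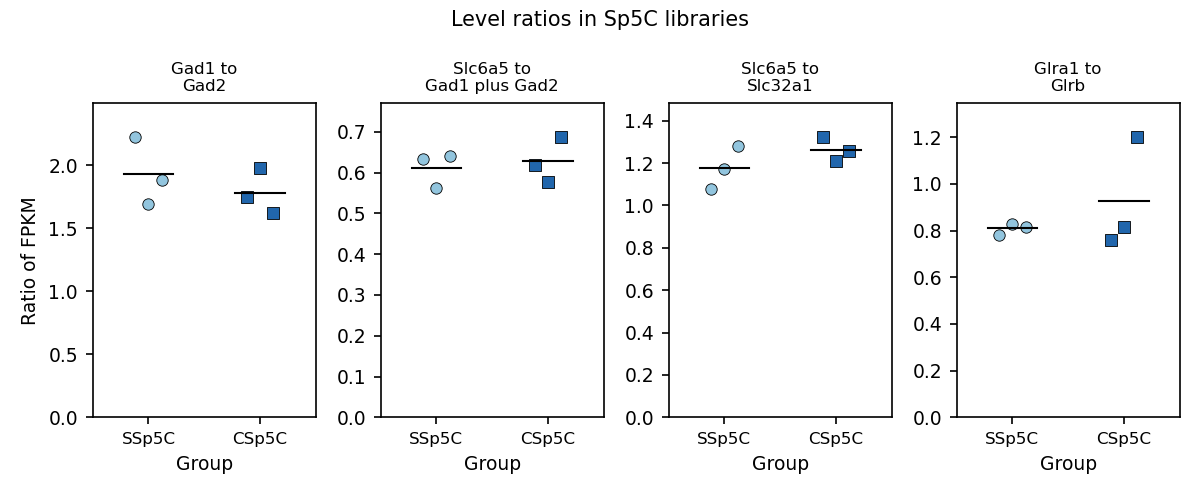
Ratios of FPKM in the 6 Sp5C libraries, each axis starting at 0, with circles for SSp5C and squares for CSp5C in the order of replicate number and lines at the mean of 3. The groups overlap in all 4 ratios, and CSp5C 3 stands apart at 1.20 for Glra1 to Glrb.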

How the data were processed

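Total RNA of 12 samples (6 per tissue, 3 per group) was sequenced after removal of ribosomal RNA with a Ribo-zero kit, from 3 µg of RNA each, with the NEBNext Ultra Directional kit, per the labels' protocols. The submitters' processing notes name HISAT2, StringTie 1.3.1 and Cuffdiff 2.1.1, and the build, annotation and HISAT2 version were not given in the sources used here. Values were used as the authors deposited them, as FPKM per transcript and library, from the protein-coding and the annotated long non-coding tables. From these, gene sums were formed and tested with limma 3.58.1 in R 4.3.3 (trend and robust moderation) on log2(FPKM + 1) for genes with a mean of at least 1, and on log2(FPKM + 0.5) for transcripts with a mean of at least 0.5, two-sided, with Benjamini-Hochberg adjustment over all features. C against S used the 6 libraries of a tissue, and the tissue contrast and the difference of effects all 12. Shares and ratios were tested with exact permutation tests in Python 3.11.15. Estimated fragment numbers are approximate and give no counting interval. The limma fits of genes between tissues, and between letters within a tissue, were tested on simulated data. The 9 genes and all lists were chosen with earlier results of these data known. Named beside the 9 genes were the 5 most alike genes, up to 4 of each list by smallest p between tissues and 1 between letters, the vesicular glutamate transporters, and, after their values were seen, Gphn, Mdga1, Phgdh, Slc38a2, overlapping genes and Gm14204. Some genes of one list are not reported here. Alternatives varied the pseudocount, filter, scaling, summing, moderation, blocking and libraries.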

Additional observations from a re-analysis of the deposited data

Results flagged for a closer look

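Each of 33 sets of 6 libraries (a level, share or ratio within a tissue) was searched for a library that stands apart, judged by its gap to the nearest other library as a fraction of the whole range, with Dixon's critical value at 95%. A total of 6 sets held such a library, where chance alone marks about 1 in 20 groups. In TG, CTG 1 was the highest for Slc6a9 (4.99 FPKM against 2.04 to 3.05, gap 0.656 of the range). CTG 1 also had the highest neutrophil and bone marrow sum of TG, with 8 of 8 such genes higher on average in CTG. It had the highest astrocyte sum of TG as well (117 FPKM against 56.5 to 99.97). The same held for the sums of oligodendrocyte genes (57.9 against 16.3 to 45.3) and Schwann cell genes (5830 against 4479 to 5769). The part of these markers was not tested. In Sp5C, CSp5C 3 was the highest for Glra1 (105 FPKM against 84.6 to 92.03, gap 0.641), the lowest for Glrb (87.7 against 106 to 113, gap 0.742) and the highest for the ratio of both (1.20 against 0.761 to 0.830, gap 0.844). These 3 come from the same pair of genes in 1 library and are not independent. CSp5C 3 was also the lowest for the share of ENSMUST00000123330 in Gad1 (gap 0.934) and, as its mirror image, the highest for that of ENSMUST00000094934 (gap 0.922). CSp5C 3 had the highest sum of motor and cholinergic markers in Sp5C (62.5 FPKM against 11.6 to 36.8). Its sums of choroid plexus and cerebellar genes were the highest as well, and those of oligodendrocytes and astrocytes the lowest. The part of these markers was not tested.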

How the results depend on the processing

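For TG against Sp5C, all 9 genes passed under each alternative that kept them (8 of 8 with a mean of at least 5 FPKM), with log2 differences from −9.12 (Glra1, pseudocount 0.1) to −1.18 (Glrb). A pseudocount of 0.1 moved 8 log2 differences by over 1.5 times, to −8.14 for Gad2, −5.57 for Glra3, −4.32 for Glra2, −2.75 for Slc38a5, −4.91 for Pax2, −4.34 for Pax8, −6.28 for Npy and −4.63 for Lhx5. Slc17a6, with no call between tissues, turned to −0.012 after median-ratio scaling and ranged from −0.021 to 0.035 with 1 library left out. The share of Slc6a9 and that of Glrb kept direction and call without any 1 library.

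For C against S, 0 of the 9 genes and 0 of their transcripts passed under any alternative run, but directions of differences near 0 turned. In TG, Glrb turned to −0.018 after quantile normalization and to −0.046 without both CTG 1 and STG 1, a removal added after seeing the data. Slc17a7 turned to −0.0050 (quantile normalization). With 1 TG library left out, Slc6a9 ranged from −0.40 to 0.089, Glrb from −0.10 to 0.072, Slc6a11 from −0.29 to 0.033, Slc38a3 from −0.42 to 0.033, Slc17a8 from −0.039 to 0.19 and Slc17a7 from −0.15 to 0.23. In Sp5C the same removal gave −0.16 to 0.0053 for Glrb, −0.043 to 0.067 for Slc6a5, −0.032 to 0.12 for Glra1 and −0.068 to 0.15 for Gad2. The log2 ratio of Slc6a5 to the Gad sum ranged from −0.032 to 0.094 and that of Glra1 to Glrb from −0.037 to 0.29. The cause was not tested.

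Counts over all genes were small and unstable. In TG the 1 gene called became 0 (mean of at least 5 FPKM, or all 12 libraries), 2 (quantile normalization), 6 (highest transcript), 5 (neither CTG 1 nor STG 1) and 0 to 7 with 1 library left out. In Sp5C the 4 called became 2 (no filter, or highest transcript), 0 (mean of at least 5, or all 12 libraries) and 0 to 8 with 1 library left out, and the difference of effects ranged from 0 to 2. For transcripts, the 17 called in TG became 6 with no filter and 18 to 37 with 1 library left out, and the 2 in Sp5C became 1 and 10 to 25.

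With the replicate number as a block, all 9 genes passed between tissues, and the calls of C against S fell to 0 in both tissues for genes and for transcripts. Same-numbered libraries of CTG and CSp5C deviated together (r = 0.228 to 0.383, 6 of 6 libraries correlating best with their own number), those of STG and SSp5C did not (−0.197 to −0.0227, 0 of 6), nor did those of STG and CTG (−0.151 to 0.191) or SSp5C and CSp5C (−0.127 to 0.103). The labels do not say that a number pairs libraries. Low values limit TG, where 6 of the 9 genes rest on at most 38.5 estimated fragments per library.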
